A study of Homo sapiens with 3 samples.

Results

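Matrix metalloproteinases (MMPs) and their tissue inhibitors (TIMPs) were followed in the RNA of CaSki cells, a long-established human line of cervical epidermoid carcinoma. The 10 genes were taken by symbol from 23277 gene symbols. They are MMP1, MMP3, MMP9, MMP10 and MMP13, which encode secreted proteases, MMP14 and MMP15, which encode membrane-type proteases, and the inhibitors TIMP1, TIMP2 and TIMP3. They were selected on FPKM levels and differences of these same libraries across all 3 groups, so every value for them is a description without a test. The first of the 3 groups carried the pMSCV empty vector and received siGFP, an siRNA against green fluorescent protein that serves as the control. The second carried pMSCV/FLAG-NANOG, a retroviral vector for the tagged pluripotency factor NANOG, and also received siGFP. The third carried pMSCV/FLAG-NANOG and received siHDAC1, an siRNA against the histone deacetylase HDAC1. All groups thus shared the cell line, a pMSCV vector and an siRNA transfection, and the labels do not say whether a line was 1 clone or a pool. Empty vector cells with siHDAC1 were not analysed here. Each group held 1 library, so differences carry neither a test nor an error.

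MMPs are zinc-dependent endopeptidases that cut collagens, other matrix proteins and many surface or secreted proteins. Most are made as inactive zymogens that are opened by other proteases, and active enzyme is blocked by TIMPs, which bind the catalytic site. In squamous carcinomas, MMPs come both from tumour cells and from stromal cells, and several of them respond to AP-1 transcription factors. The values here are RNA levels and say nothing of zymogen activation or enzyme activity.

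Levels are in FPKM, that is, fragment numbers divided by the length of the transcript and by the mapped total of the library, so that genes can be compared per length. The library sums lay between 600749 and 681947 FPKM. NANOG was at 0.0357 FPKM in the empty vector library and at 298 and 325 FPKM in the NANOG libraries with siGFP and siHDAC1. HDAC1 stood at 19.02 FPKM with the empty vector, 108 FPKM with NANOG and siGFP and 12.8 FPKM with siHDAC1, so the NANOG siGFP library stood apart in the very gene that siHDAC1 targets. A total of 18 genes lay at least 2-fold above both other libraries in the NANOG siGFP library, against 4 in the siHDAC1 library and 83 in the empty vector library, the only library without NANOG. The numbers below both others were 5, 1 and 27. Because of its HDAC1 level, differences that rest on the NANOG siGFP library are given beside that between the siHDAC1 library and the empty vector library, which leaves it out. Among defining markers, all 10 squamous epithelial genes were above 0 in every library, with a summed level of 2761 to 3536 FPKM. Of 10 fibroblast markers (15.3 to 18.7 FPKM in sum), 7 stayed below 0.5 FPKM in all 3 libraries, the exceptions being FAP at 10.5 to 14.6 FPKM, COL1A1 at 2.67 to 3.94 FPKM and COL1A2. All 6 endothelial markers (0.432 to 0.574 FPKM in sum) and 8 of 10 leukocyte markers stayed below 0.5 FPKM in all 3 libraries. The leukocyte sum of 55.6 to 64.8 FPKM came mostly from CD68, a lysosomal gene. CSF1R, a macrophage receptor, was at 3.10 to 4.52 FPKM, and PTPRC was at 0.00 to 0.01 FPKM.

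TIMP2 and TIMP1 were the most abundant members in each library, followed by the membrane-type proteases or, with siHDAC1, by MMP15 and MMP3. MMP9 and MMP10 were the lowest in every library, below 0.5 FPKM throughout. In the empty vector library the order from high to low was TIMP2, TIMP1, MMP15, MMP14, MMP3, TIMP3, MMP1, MMP13, MMP9 and MMP10. Whether neighbours in this order differ beyond the spread between cultures cannot be said from 1 library each. In both NANOG libraries MMP1 stood above TIMP3 and MMP10 above MMP9, and in the siHDAC1 library MMP3 also stood above MMP14.

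**Figure D1:**
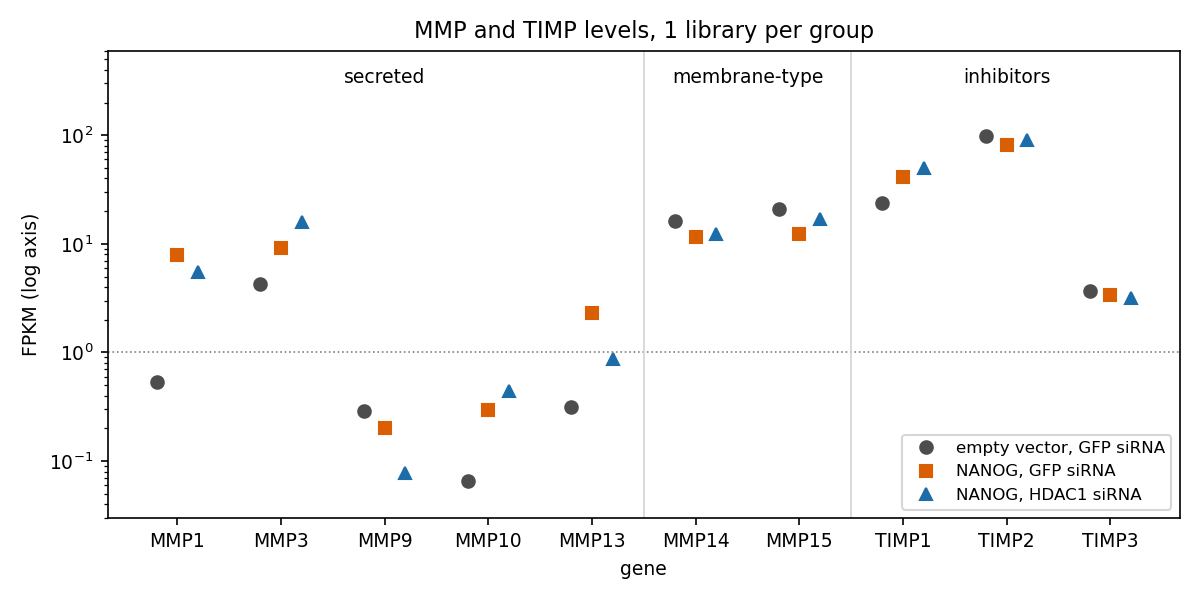
FPKM of the 10 genes on a log axis, with 1 point per library; the dotted line marks 1 FPKM. MMP1, MMP3, MMP10 and MMP13 lie higher in both NANOG libraries (squares and triangles) than in the empty vector library (circles), whereas MMP14 and MMP15 lie lower.

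The first comparison was NANOG against empty vector with siGFP in both. It showed higher RNA of the collagenases MMP1 and MMP13 and the stromelysins MMP3 and MMP10, and lower RNA of membrane-type MMP14 and MMP15. MMP1 encodes interstitial collagenase, which cleaves fibrillar collagens. It was at 0.536 FPKM without NANOG (empty vector), 7.86 FPKM with NANOG and siGFP, and 5.51 FPKM with NANOG and siHDAC1. Both NANOG libraries were thus far above the control, at 14.7 and 10.3 times its FPKM. In bulk RNA, fewer cells that express a gene and less RNA per cell cannot be told apart. The difference between NANOG and empty vector was 2.53 on the log2(FPKM + 1) scale, which understates differences of low genes, and it ranked 5 from the top among the 11405 genes whose mean reached 1 FPKM. By the transcript length and the depth inferred from low values, about 27, 409 and 286 fragments stood behind these levels.

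MMP13 encodes collagenase-3, which also cleaves fibrillar collagen. It was at 0.312 FPKM without NANOG, 2.31 FPKM with NANOG and siGFP, and 0.878 FPKM with NANOG and siHDAC1. The NANOG siGFP library was the highest and the siHDAC1 library intermediate. The difference for NANOG was 1.34, and without the NANOG siGFP library, between siHDAC1 and empty vector, it was 0.52. About 22, 166 and 63 fragments stood behind MMP13. Of low matrix genes in the same library, COL1A2, a fibrillar collagen chain, was at 0.95 FPKM with NANOG and siGFP and at 0.02 and 0.01 FPKM in the empty vector and siHDAC1 libraries. DCN and LUM, from the list of 10 fibroblast markers, were at 0.02 FPKM in that library and at 0 in the others, values near the floor. Of the other markers PDGFRA was also highest there, at 0.04 FPKM, whereas FAP (10.5 FPKM), PDGFRB (0.01 FPKM) and POSTN (0) were lowest there. COL1A1 lay between the other libraries, and THY1 and COL3A1 were at 0 in both NANOG libraries. The part of these genes in the MMP13 level was not tested.

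MMP3 encodes stromelysin-1, which cleaves proteoglycans and laminin and can open other MMP zymogens. It was at 4.23 FPKM without NANOG, 9.10 FPKM with NANOG and siGFP, and 15.9 FPKM with NANOG and siHDAC1. Each NANOG library was above the control, and the siHDAC1 library was the highest. The difference for NANOG was 0.95, just under the 2-fold mark, and that between siHDAC1 and empty vector was 1.70, or 3.77 times in FPKM. MMP3 was the most abundant secreted protease of the set in all libraries.

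MMP10 encodes stromelysin-2, the closest relative of MMP3. It was at 0.0649 FPKM without NANOG, 0.297 FPKM with NANOG and siGFP, and 0.446 FPKM with NANOG and siHDAC1, the same order as MMP3. These 3 values stand in the ratio 3 to 14 to 21 once the depth of the libraries is equalised, and such small numbers of fragments also follow from the transcript length. MMP9 encodes gelatinase B, which degrades denatured collagen and collagen IV. Its levels were 0.287, 0.203 and 0.0781 FPKM across these libraries, a ratio of 18 to 13 to 5, and MMP9 was thus the only secreted protease of the set that was lower in both NANOG libraries. Both ratios imply a depth close to the 26400000 fragments that low genes in general gave, at 26800000 for MMP10 and 27400000 for MMP9. Neither gene passed the filter of a mean of 1 FPKM, and 3 fragments in a library leave a wide margin.

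The membrane-type members, MMP14 and MMP15, went the other way. MMP14, or MT1-MMP, is a transmembrane collagenase that also activates the zymogen of MMP2. It was at 16.1 FPKM without NANOG, 11.6 FPKM with NANOG and siGFP, and 12.3 FPKM with NANOG and siHDAC1. MMP15, or MT2-MMP, a close relative, was at 21.1, 12.2 and 16.8 FPKM. For both genes the NANOG libraries were below the control and the siHDAC1 library lay between the others, for MMP14 close to the NANOG siGFP library. The differences for NANOG were -0.44 for MMP14 and -0.74 for MMP15, neither reaching 2-fold.

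Among the inhibitors, TIMP1 differed and TIMP3 hardly did. TIMP1 blocks most soluble MMPs and binds the zymogen of MMP9. It was at 23.6 FPKM without NANOG, 40.8 FPKM with NANOG and siGFP, and 49.6 FPKM with NANOG and siHDAC1. Both NANOG libraries were above the control, and the siHDAC1 library was the highest. The difference was 0.76 for NANOG and 1.04 for NANOG with siHDAC1 against empty vector. TIMP2, which inhibits MMPs and also bridges MMP14 to the MMP2 zymogen, was at 98.6, 81.6 and 91.3 FPKM. TIMP3, the matrix-bound inhibitor that also blocks ADAM proteases, was at 3.65, 3.39 and 3.19 FPKM. The NANOG differences of TIMP2 (-0.27) and TIMP3 (-0.08) were small against that of TIMP1.

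Of the 8 members whose mean reached 1 FPKM, 2 were higher with NANOG by 2-fold or more (MMP1 and MMP13) and 0 were lower by as much. Over all 11405 genes, 0.675% were higher by 2-fold or more and 1.22% lower by as much. Since the members were chosen with these levels known, nothing is read from this share. MMP1 and MMP13 were below 1 FPKM in the control. MMP1 passed the filter through both NANOG libraries. MMP13 passed it through the NANOG siGFP library alone, since it was at 0.878 FPKM with siHDAC1. The median difference was 0.34 over the 8 members and -0.01 over all genes, with 4 members above 0 and 4 below.

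**Figure D2:**
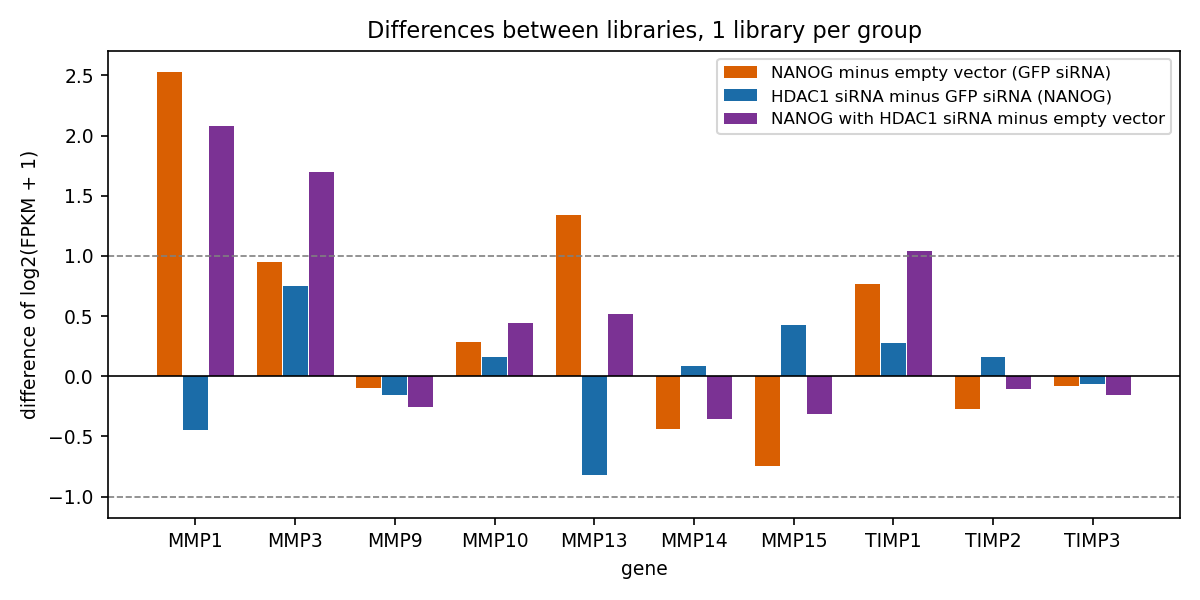
Differences of log2(FPKM + 1) between libraries for each gene, as bars from 0, with dashed lines at the 2-fold mark. MMP1 reaches 2.53 for NANOG against empty vector, MMP13 stands at 1.34 for NANOG and -0.82 for siHDAC1, and no bar passes the lower line.

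The second comparison, siHDAC1 against siGFP in NANOG cells, showed no member at 2-fold on the log2(FPKM + 1) scale, a call that for MMP13 depends on the pseudocount. MMP3 was higher with siHDAC1 by 0.75, or 1.75 times in FPKM, which ranked 26 from the top of 11405 genes. MMP15 was higher by 0.43 and TIMP1 by 0.27. MMP13 was lower, at -0.82, and MMP1 also, at -0.44. In FPKM, MMP13 with siHDAC1 was at 0.379 times its siGFP level, and its difference was -1.03 with a pseudocount of 0.5 FPKM and -1.30 with 0.1 FPKM, past the 2-fold mark. TIMP2 (0.16), MMP14 (0.08) and TIMP3 (-0.07) lay closer to 0. MMP10 (0.16) and MMP9 (-0.16) did so on this scale, which compresses genes below 0.5 FPKM. MMP9 with siHDAC1 was at 0.385 times its siGFP level in FPKM, near the ratio of MMP13. With a pseudocount of 0.1 FPKM the differences were -0.77 for MMP9 and 0.46 for MMP10. Both rest on few fragments, about 13 and 5 for MMP9 and 14 and 21 for MMP10 with siGFP and siHDAC1. Of the 8 members past the filter, 0 were higher and 0 lower by 2-fold or more, against 0.0877% and 0.21% of all genes. The member median was 0.12, and that over all genes 0.01. Under TPM (each library rescaled to the same sum) the all-gene median became 0.18 and TIMP3 turned to 0.08. This comparison shares the NANOG siGFP library with the first, in which that library enters with the opposite sign.

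The third comparison, NANOG with siHDAC1 against empty vector, leaves the NANOG siGFP library out. Here 3 of the 8 members were higher by 2-fold or more and 0 lower, against 0.368% and 0.824% of all genes. They were MMP1 (2.08), MMP3 (1.70) and TIMP1 (1.04). MMP13 stood at 0.52, or 2.82 times in FPKM, and at 1.25 with a pseudocount of 0.1 FPKM, where 4 members were higher by 2-fold or more. Of the 8 members, those below 0 were MMP14 at -0.36, MMP15 at -0.32, TIMP3 at -0.15 and TIMP2 at -0.11. TIMP2 turned to 0.03 under TPM. The median was 0.20 over the 8 members and 0.00 over all genes. Below the filter, MMP10 stood at 0.44 and MMP9 at -0.25, or 6.87 and 0.273 times their empty vector FPKM, on few fragments.

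Summed by class, the secreted proteases were at 5.43 FPKM without NANOG, 19.8 FPKM with NANOG and siGFP, and 22.9 FPKM with NANOG and siHDAC1. The membrane-type pair summed to 37.2, 23.8 and 29.1 FPKM. Added together, the 7 proteases were nearly level between the first libraries, at 42.7 and 43.6 FPKM, and stood at 52.0 FPKM with siHDAC1. Secreted proteases made up 12.7% of that sum without NANOG, 45.3% with NANOG and siGFP, and 43.99% with NANOG and siHDAC1. MMP3 alone held 77.9% of the secreted sum in empty vector cells and 69.8% with siHDAC1, but 46.0% with NANOG and siGFP, where MMP1 held 39.7%.

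The TIMP sum was 126 FPKM in both siGFP libraries and 144 FPKM with siHDAC1. Its makeup differed, since TIMP1 held 18.8% of it in empty vector cells, 32.5% with NANOG and siGFP, and 34.4% with NANOG and siHDAC1. The sum of the 7 proteases amounted to 33.9%, 34.6% and 36.1% of the TIMP sum in the 3 libraries. This ratio thus lay close together, whereas the share of secreted proteases and of TIMP1 within the sums did not.

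**Figure D3:**
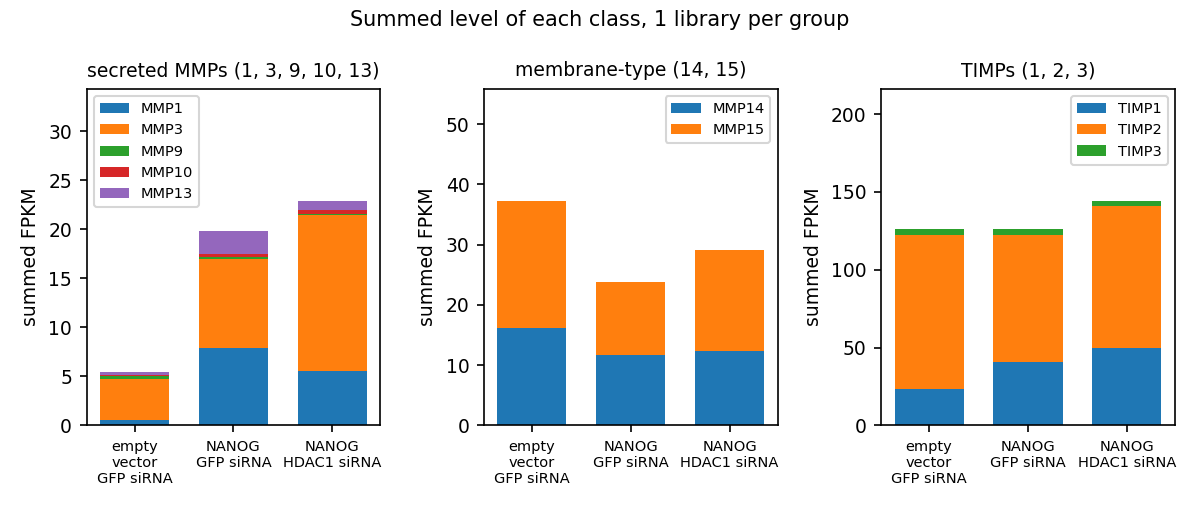
Summed FPKM of each class by library, stacked by gene, with a separate axis per panel that starts at 0. The secreted sum goes from 5.43 to 19.8 and 22.9 FPKM, while the TIMP sum is 126, 126 and 144 FPKM with a larger TIMP1 block in the NANOG libraries.

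MMP1, MMP3, MMP10 and MMP13 lie in a cluster of MMP genes on chromosome 11. In RefSeq gene order the protein-coding genes run MMP7, MMP20, MMP27, MMP8, MMP10, MMP1, MMP3, MMP12 and MMP13. The last 5 are direct neighbours, and each was higher in both NANOG libraries than in the empty vector library. All of them but MMP12 are members chosen with these differences known, so nothing is read from the shared direction. MMP12, which encodes macrophage elastase, was at 0.0403 FPKM in empty vector cells and at 0.0990 FPKM in both NANOG libraries, a ratio of only 2 to 5 to 5. MMP8, the neutrophil collagenase, was at 0.0479, 0.0118 and 0.0353 FPKM, a ratio of 4 to 1 to 3. MMP20, known from tooth enamel, was at 0.0771, 0.0378 and 0.151 FPKM, and MMP27 was listed at 0 in all libraries. MMP7, or matrilysin, was at 0.719, 1.20 and 0.494 FPKM, highest with NANOG and siGFP as MMP13 was. Outside the cluster, BIRC3 and BIRC2, inhibitors of apoptosis, were at 67.4 to 83.0 and 224 to 244 FPKM. YAP1 was at 394, 307 and 327 FPKM and TMEM123 at 1078, 804 and 894 FPKM, NANOG differences of -0.36 and -0.42, similar in size to that of MMP14. The difference was -0.04 for DCUN1D5 and 0.10 for DYNC2H1. PDGFD, which encodes a platelet-derived growth factor, was at 0.109, 0.587 and 0.464 FPKM.

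**Figure D4:**
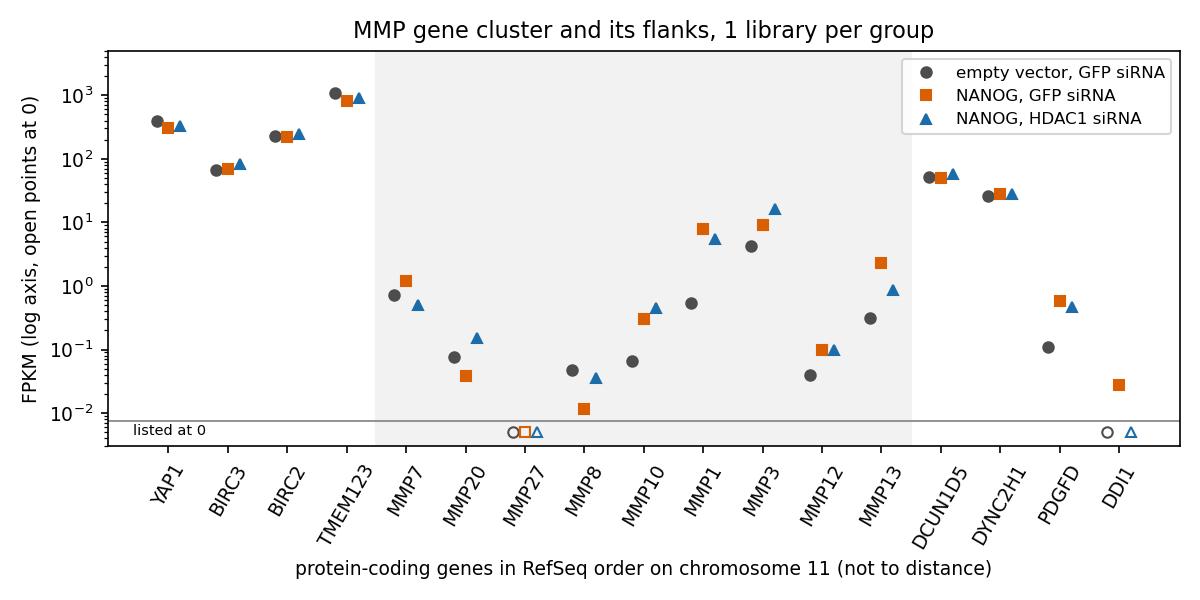
FPKM (log axis) of the protein-coding genes of the MMP cluster (grey band) and 4 named genes on either side, in RefSeq order and not to distance; open points are listed at 0. From MMP10 to MMP13 the empty vector point is the lowest of the 3 for every gene, and the flanking genes YAP1 and TMEM123 are lower in both NANOG libraries.

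Some members overlap other genes, and how strand entered the counting is not stated in the labels. The pseudogene WTAPP1, which overlaps MMP1 and the end of MMP3, was at 0.796, 0.672 and 0.822 FPKM, and thus did not follow MMP1. SYN1, SYN3 and CEP295NL, which overlap TIMP1, TIMP3 and TIMP2, stayed below 0.5 FPKM in all libraries.

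RefSeq promoters were matched by symbol for 5 of the 10 genes, MMP10, MMP14, MMP15, TIMP1 and TIMP3. No entry was matched for MMP1, MMP3, MMP9, MMP13 and TIMP2, so their promoters could not be searched here. Shown are the 150 bases before the start for genes that were higher in both NANOG libraries (MMP10 and TIMP1) and lower in both (MMP14 and MMP15), on build GRCh38.p14 and in the direction of the gene. They lie at chr11:102780629-102780778 on the minus strand for MMP10, and on the plus strand at chrX:47582286-47582435 for TIMP1, chr14:22836435-22836584 for MMP14 and chr16:58025604-58025753 for MMP15. Capitals mark the AP-1 motif TGANTCA, the TATA motif TATAAA and the GC box GGGCGG, searched on both strands over 250 bases before the start.
MMP10: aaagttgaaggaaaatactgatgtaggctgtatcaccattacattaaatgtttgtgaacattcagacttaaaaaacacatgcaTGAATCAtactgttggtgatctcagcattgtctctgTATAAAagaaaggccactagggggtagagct
TIMP1: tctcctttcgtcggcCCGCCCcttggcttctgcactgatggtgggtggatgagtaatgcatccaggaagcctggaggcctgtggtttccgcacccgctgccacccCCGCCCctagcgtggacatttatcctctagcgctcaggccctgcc
MMP14: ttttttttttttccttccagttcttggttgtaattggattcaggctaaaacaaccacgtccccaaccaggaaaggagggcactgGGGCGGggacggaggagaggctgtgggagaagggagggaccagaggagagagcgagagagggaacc
MMP15: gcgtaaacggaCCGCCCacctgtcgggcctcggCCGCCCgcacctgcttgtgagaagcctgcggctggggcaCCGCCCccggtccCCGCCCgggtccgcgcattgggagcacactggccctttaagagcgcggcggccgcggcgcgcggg
The marked motifs do not overlap one another. MMP10 holds TGAATCA from position -67 and TATAAA from position -31, counted from the start, and no GC box. TIMP1 holds 2 GC boxes, MMP14 holds 1 and MMP15 holds 5 within 250 bases, and none of these 3 promoters holds TGANTCA or TATAAA there. TIMP3, not shown, holds 5 GC boxes. Over 35116 RefSeq promoters of the same length, 6.57% hold TGANTCA, 10.7% hold TATAAA and 42.6% hold GGGCGG. A match is a description of the letters and not a site of binding. The lack of a match holds only for these exact letters. Near matches, such as tgagtaa in the TIMP1 stretch, were not searched.

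The AP-1 subunits themselves were mostly abundant. Of 10 listed genes 8 passed the filter, and 0 were at least 2-fold higher or lower in any comparison. The median difference was 0.11 for NANOG and 0.18 for siHDAC1. Between siHDAC1 and empty vector it was 0.37, with 5 genes above 0 and 3 below, against -0.0007 over all genes. FOSL1, which encodes FRA1, was at 117 FPKM without NANOG, 137 FPKM with NANOG and siGFP, and 182 FPKM with NANOG and siHDAC1. It followed the order of MMP3, MMP10 and TIMP1. FOSL2, which encodes FRA2, was at 65.5, 40.2 and 45.2 FPKM and JUND at 59.7, 39.9 and 41.5 FPKM, the order of MMP14 and MMP15. FOS was at 0.87, 1.33 and 1.65 FPKM. The others past the filter were named after their values were seen. JUN, at 40.9, 44.0 and 56.0 FPKM, and ATF3, at 68.1, 73.6 and 89.1 FPKM, had the order of FOSL1. JUNB, at 63.8, 52.7 and 54.5 FPKM, had that of FOSL2, and BATF3, at 3.90, 5.51 and 5.27 FPKM, was highest with NANOG and siGFP. Of 15 ETS factors, which bind GGAA cores and can act with AP-1, 11 passed the filter and 0 reached 2-fold. Their median was -0.16 for NANOG, with ELK3 at -0.80, ETV4 at 0.43, ELF3 at -0.07 and ETS2 at -0.38.

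Other MMPs were low. Of 17 further MMP genes in the files 12 stayed below 0.5 FPKM in all 3 libraries, and 3 passed the filter with 0 at 2-fold in any comparison. MMP2, or gelatinase A, the usual substrate of MMP14, was at 2.54 FPKM without NANOG, 2.74 FPKM with NANOG and siGFP, and 1.98 FPKM with siHDAC1. MMP19 was at 1.48, 0.847 and 1.33 FPKM, the order of MMP14 and MMP15. MMP24, a further membrane-type protease, was at 0.73, 0.73 and 0.92 FPKM. Other membrane-type proteases were named after their values were seen. MMP17 was at 2.76, 3.10 and 2.92 FPKM and MMP25 at 0.26, 0.34 and 0.36 FPKM, both higher in the NANOG libraries, unlike MMP14 and MMP15. MMP16 was at 0.006 FPKM in empty vector cells and at 0 in the NANOG libraries.

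Of 9 further inhibitors, 4 passed the filter and 2 of these were at least 2-fold higher with NANOG, both highest in the NANOG siGFP library. Over all genes, 0.675% were higher by as much. The list was chosen with earlier results known, so nothing is read from this share. TIMP4 was at 1.38 FPKM without NANOG, 5.90 FPKM with NANOG and siGFP, and 2.72 FPKM with NANOG and siHDAC1. Its NANOG difference was 1.53 and its siHDAC1 difference -0.89. SPOCK1, which encodes testican-1, a matrix proteoglycan, was at 0.33, 2.68 and 0.61 FPKM, with differences of 1.47 and -1.19. The latter was the 1 case at 2-fold lower in the list, against 0.21% of all genes. SPOCK1 passed the filter through the NANOG siGFP library. Against empty vector without the NANOG siGFP library, TIMP4 stood at 0.64 and SPOCK1 at 0.28. This is the order seen for MMP13. RECK, a membrane-anchored inhibitor, was at 3.62, 3.43 and 4.12 FPKM, and TFPI2, a secreted protease inhibitor, at 8.88, 10.5 and 9.15 FPKM.

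The list of proteases that can open MMP zymogens, directly or by activating another protease, held 18 genes. With NANOG, 5 of the 7 past the filter were lower, 2 of these by at least 2-fold. Over all genes, 5792 of 11405 were lower, 1.22% by 2-fold. PLAT, which encodes tissue plasminogen activator, was at 45.9 FPKM without NANOG, 8.52 FPKM with NANOG and siGFP, and 8.75 FPKM with NANOG and siHDAC1. PLG, which encodes plasminogen and was named after its values were seen, was listed at 0 in all libraries. KLK5, a kallikrein of squamous epithelium, was at 72.8, 34.9 and 32.0 FPKM. PLAU, which encodes urokinase and was named after its values were seen, was at 51.5, 48.3 and 60.8 FPKM. FURIN, which cuts membrane-type MMPs open and was also named after its values were seen, was at 13.3, 13.8 and 12.6 FPKM. PCSK6, a furin relative, was at 1.45, 0.67 and 1.13 FPKM, and PRSS3, a trypsin, at 0.70, 0.11 and 0.11 FPKM. The list median was -0.33 for NANOG and 0.03 for siHDAC1.

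Among 11 listed partners and inducers, 8 passed the filter, 1 was higher and 2 were lower with NANOG by 2-fold or more, with a median of -0.35. Over all genes, 0.675% were higher and 1.22% lower by as much, with a median of -0.01. The squamous epithelial markers had a median of -0.36, so nothing particular to this list is read from it. SPP1, which encodes osteopontin, a substrate of MMP3, was at 1.604 FPKM without NANOG, 13.6 FPKM with NANOG and siGFP, and 7.94 FPKM with NANOG and siHDAC1. LCN2, whose product binds MMP9, was at 419, 196 and 213 FPKM. CLDN1, a tight junction claudin, was at 8.02, 2.99 and 5.18 FPKM, and LRP1, an endocytic receptor that clears MMPs, at 4.25, 2.56 and 2.00 FPKM. Without the NANOG siGFP library, between siHDAC1 and empty vector, 1 gene of the list was higher and 0 were lower by 2-fold. Over all genes, 0.368% were higher and 0.824% lower by as much. There LCN2 stood at -0.97 and CLDN1 at -0.54, against -1.09 and -1.18 for NANOG, and SPP1 at 1.78.

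Substrate genes of the matrix were lower with NANOG in 12 of 16 cases past the filter, of 30 listed, with 1 at least 2-fold lower and a median of -0.25. The squamous epithelial markers had 7 of 9 lower and a median of -0.36. Over all 11405 genes, 5792 were lower, 1.22% by 2-fold or more, so nothing particular to the matrix genes is read from this. FN1, which encodes fibronectin, was at 264 FPKM without NANOG, 87.0 FPKM with NANOG and siGFP, and 76.5 FPKM with NANOG and siHDAC1. COL4A1, a basement membrane collagen and substrate of MMP9, was at 14.3, 7.37 and 11.5 FPKM, the order of MMP14 and MMP15. COL17A1, a hemidesmosomal collagen, was at 146, 80.1 and 83.6 FPKM. For siHDAC1 the list median was -0.09, and 0.09 under TPM.

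**Figure D5:**
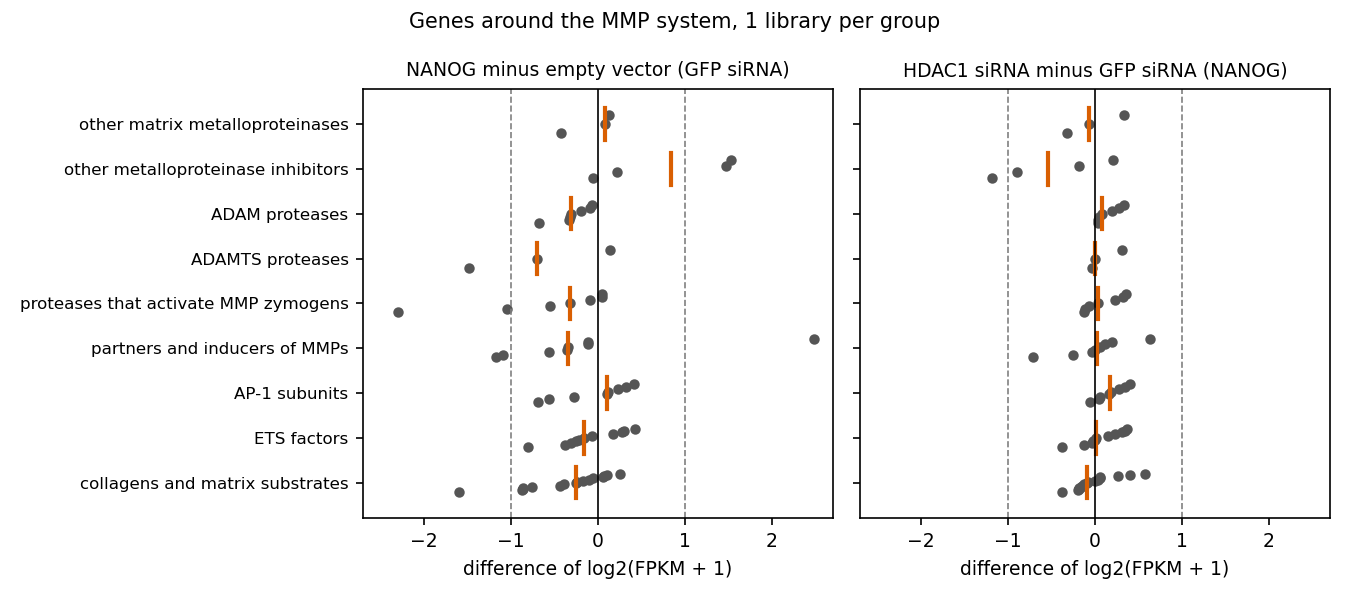
Difference of log2(FPKM + 1) for genes past the filter in each list, for NANOG against empty vector (left) and siHDAC1 against siGFP (right); points are genes, orange bars list medians and dashed lines the 2-fold mark. TIMP4 and SPOCK1 lie right of the line on the left panel, and PLAT, FN1 and ADAMTS12 lie left of it.

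By the distance between their differences in the first and second comparison, over only 3 libraries, the genes nearest to MMP1 were SPP1 (0.27), DNER (0.29), AKR1C1 (0.32) and CYP1B1 (0.38). DNER was at 1.59, 11.3 and 8.58 FPKM, AKR1C1 at 5.10, 32.1 and 18.7 FPKM and CYP1B1 at 3.09, 17.8 and 11.2 FPKM. These genes were picked for this likeness, so their shared order is no result. Nearest to TIMP1 were SDSL (0.06), PHLDA2 (0.07), SLAMF9 (0.08) and VAX2 (0.13). PHLDA2, an imprinted growth regulator, was at 18.4, 31.8 and 36.9 FPKM, the most abundant of these. Nearest to MMP10 on this scale, which compresses so low a gene, were GABPB2, PDIK1L, ZNHIT2 and POLR3G, each within 0.02.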

How the data were processed

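Total RNA of 3 groups of CaSki cells was sequenced, 1 library each. Per the labels' protocols, Trizol RNA (2 ug) went into a stranded TruSeq kit for total RNA. The build hg19 and the tools TopHat2 and Cufflinks come from the submitters' processing notes; versions, annotation and strand handling were not given in the sources used here. Each deposited file holds the FPKM of every symbol in 1 library, as the authors computed it, already divided by transcript length and mapped fragments, so very abundant RNAs in a library lower its other values.

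The members and gene lists were chosen with earlier results of these data known. Differences were taken as log2(FPKM + 1) over 11405 genes whose mean reached 1 FPKM, without 1627 small RNA symbols, and counted at 2-fold; there was no test. Named genes were the members, NANOG, HDAC1, per list those at 2-fold or in any case the 4 with the largest difference, the markers, and the 4 genes nearest to MMP1, MMP10 and TIMP1. Low values of 152 of 197 single-transcript genes under 0.3 FPKM stood in ratios of whole numbers up to 12 (within 0.3%), which with GENCODE release 29 lengths implied a median of 26400000 fragments per library (quartiles 19500000 and 27700000); fragment numbers are approximate and carry no interval. One fragment was worth 1.019 times as much in the empty vector library as in the NANOG siGFP library. Steps were tested on simulated data. Alternatives were other pseudocounts, filters, scalings and thresholds, and small RNAs kept. Python 3.11.15, numpy 2.4.6, pandas 2.3.3 and matplotlib 3.10.9 were used.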

Additional observations from a re-analysis of the deposited data

How the results depend on the processing

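No paired analysis was possible because each group held 1 library and no replicate numbers are given. For the same reason no library could be left out as a replicate. Of the 150 member differences recomputed under other pseudocounts and scalings, 140 kept their sign and their side of the 2-fold mark, 8 passed it and 2 changed sign, TIMP3 (0.08) and TIMP2 (0.03) under TPM. MMP1 stayed between 2.53 and 3.65 for NANOG and between 2.07 and 3.14 for NANOG with siHDAC1, both against empty vector. Below, A is NANOG against empty vector, B is siHDAC1 against siGFP, and C is siHDAC1 against empty vector; a median counts as moved when it shifts by more than 0.1.

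With a pseudocount of 0.1 FPKM, 138 genes were higher and 216 lower in A, 22 higher and 47 lower in B, and 79 higher in C, and the member median in C was 0.48. MMP13 then was the 1 member at least 2-fold lower in B (-1.30, and -1.03 with a pseudocount of 0.5 FPKM, where that count was also 1). With 0.5 FPKM the member median in C was 0.33. MMP3 in A was 1.09 with 0.1 FPKM and 1.02 with 0.5 FPKM, past the 2-fold mark that it otherwise missed. With 0.1 FPKM, MMP10 also passed the mark, at 1.27 in A and 1.73 in C. So did MMP9 (-1.12) and MMP13 (1.25) in C. MMP9 and MMP10 are below the filter and do not enter the member counts. With no filter the member median in A was 0.10 over all 10. A filter at 5 FPKM left 5 members, without MMP1, MMP13 and TIMP3; 0 members were higher in A, medians were -0.27 in A, 0.27 in B and -0.11 in C, and 27 genes were higher in C. Under TPM 21 genes were higher in B and 70 in C, and the member medians were 0.30 in B and 0.38 in C, against shifts of all genes by 0.18 and 0.13. At 1.5-fold, 4 members were higher and 1 lower in A, and 1 higher and 1 lower in B. Over all genes this gave 396 higher and 601 lower in A, 78 and 163 in B, and 203 and 395 in C. At 3-fold, 1 member, 21 genes higher and 32 lower remained in A, 4 genes lower in B, and 14 higher and 23 lower in C. With small RNAs kept, 26 genes were higher and 49 lower in B. The cause of these shifts was not tested beyond what each setting does by its construction.

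Depth limits MMP9 and MMP10 most, since each rests on about 21 fragments or fewer per library.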

Other observations

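Relatives of the MMPs in the same superfamily were also measured. ADAM proteases, membrane-bound sheddases that TIMP1 and TIMP3 can inhibit, were lower with NANOG in all 7 cases past the filter, of 12 listed, with 0 at 2-fold and a median of -0.31, while 5792 of all 11405 genes were lower. ADAM23, outside the list and named after its values were seen, was higher, at 0.816, 2.01 and 1.35 FPKM with a NANOG difference of 0.73. ADAM9 was at 130 FPKM without NANOG, 104 FPKM with NANOG and siGFP, and 110 FPKM with NANOG and siHDAC1. ADAM10, the main sheddase of Notch receptors and cadherins, was at 44.7, 35.5 and 36.7 FPKM. ADAM19 was at 6.04, 3.39 and 4.55 FPKM, with the largest NANOG difference past the filter at -0.68. ADAM28 was below the filter, at 0.07, 0.36 and 0.27 FPKM. Without the NANOG siGFP library, between siHDAC1 and empty vector, 5 of the 7 past the filter were lower. Their median was -0.24, and 5726 of all genes were lower.

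Of 19 listed ADAMTS proteases, secreted relatives several of which cleave proteoglycans, 14 stayed below 0.5 FPKM in all libraries and 3 passed the filter. ADAMTS12 was at 2.92 FPKM in empty vector cells and at 0.41 and 0.75 FPKM in the NANOG libraries with siGFP and siHDAC1. Its differences were -1.48 and -1.17, and it was the 1 gene of the list at 2-fold. Over all genes, 1.22% and 0.824% were lower by as much in these comparisons. ADAMTS12 passed the filter through the empty vector library, so nothing is read from this share. ADAMTS1, a versican-cleaving protease, was at 19.7, 11.7 and 11.7 FPKM. ADAMTS6 was at 1.49, 0.47 and 0.86 FPKM, and ADAMTS15 at 0.42, 0.95 and 1.12 FPKM, the order of MMP10.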
